A study of Mus musculus with 7 samples.

Results

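In the cerebral cortex of C57BL/6 mice, 878 inner exons in 573 genes took a larger share of their gene's sequencing reads in young adults than in embryos. They were chosen from an exon table in which lower values stand for a larger share. Genes with at least 5 exon rows were kept, the rows with the smallest and the largest start were left out, and 70127 inner exons of 5955 genes remained. An exon was taken when its 3 adult values all lay below its 4 embryonic values and the adult mean lay at least 2 below the embryonic mean. The rule took 1.25% of the inner exons. Its mirror image, a smaller share in adult, took 837 exons in 540 genes, or 1.19%. Because the adult-embryonic difference chose these exons, their values are described here and not tested. Without regard to size, 3543 inner exons (5.05%) had all adult values below all embryonic values and 4923 (7.02%) had them all above. Without adult replicate 3 the rule, with fewer values to keep apart, took 1444 exons, among them 831 of the 878.

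The 4 embryonic samples were taken at embryonic day 17 and the 3 adult samples from young adult animals. All were cerebral cortex of the C57BL/6 strain, without any treatment named in the labels, and whether each sample was 1 animal is not stated there. Messenger RNA was sequenced, and the samples held 18444240 to 23606499 reads in genes. The share of an exon is 100 divided by a whole number, the gene's reads over the exon's reads, so shares near 25% move in coarse steps and small shares rest on few reads. Estimated exon reads, the gene's reads over that whole number, never fell below 1. In the embryonic samples 632 to 771 exon values stood at 1 against 333 to 396 at 2, and in the adult samples 366 to 419 against 437 to 453. A value of 1 may therefore stand for no read, and the embryonic shares of such exons are upper limits.

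Most multi-exon genes make several mRNAs from 1 stretch of DNA. An exon can be skipped or included, a gene can start from another promoter, and an mRNA can end early at another poly(A) site, and each of these moves reads between the exons of a gene. In brain, families of RNA-binding proteins such as the Ptbp, Rbfox, Nova, Mbnl and Celf proteins are known to set exon choice while neurons mature, and many of the exons they act on lie in genes of the cytoskeleton, of synapses and of membrane traffic.

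All 8 cortical neuron markers were measured, 1 higher and 7 lower in adult by limma, with summed levels of 1863 to 2019 counts per 1000000 reads in genes (CPM) in embryonic and 1737 to 1872 in adult samples. Markers of other cells, and of the choroid plexus and striatum, which lie outside the cortex, differed between the groups. All 9 choroid plexus markers were called higher in adult by limma, with sums of 2.11 to 3.81 CPM in embryonic and 604 to 742 in adult samples. Of 11 striatal markers 9 were higher and 2 lower, with sums of 146 to 161 and 947 to 1069 CPM. Oligodendrocyte markers were higher for 11 of 11 tested (63.7 to 70.2 against 4466 to 8011 CPM). Astrocyte markers were higher for 9 of 10 (426 to 447 against 5617 to 6665 CPM) and microglial markers for 8 of 8 (29.3 to 34.2 against 331 to 338 CPM). Of 7 blood markers none was higher and 4 were lower, with sums of 1012 to 1539 against 365 to 919 CPM. In bulk tissue, the number of cells of a type, RNA per cell and how much neighbouring tissue was taken at each age cannot be told apart. The part of these cells in the exon shares below was not tested.

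The exons gained from a low base, which the rule favours, since it asks for an embryonic share below the adult one. Over the 878 exons the median share was 1.23% to 1.3% in each of the 4 embryonic samples and 2.94% to 3.33% in the 3 adult samples. Over all inner exons the median was 4.17% to 4.35% in every sample of either age. Their median thus lay below that of inner exons at both ages, although 298 of the 878 had an adult mean share above 4.35%. The adult share was a median of 2.47 times the embryonic share, with a lowest value of 1.51 times. It was at least 2 times in 577 exons, at least 4 times in 258 and at least 10 times in 70, with estimated reads of 1 taken as they stand. Among the 644 exons with more than 3 estimated reads in every embryonic sample, the median was 2.06 and the highest 52.6 times, in Rtn4. The embryonic minus adult difference in the deposited score had a median of 2.81 and a highest value of 13.5, against a median of -0.03 over all inner exons.

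Some of these shares rest on few reads. Of the 878 exons, 173 stood at 1 estimated read in at least 1 embryonic sample and 36 in all 4. At most 5 estimated reads in every embryonic sample were found for 137 (15.6%), against 0.833% of all inner exons. The rule, which asks for a lower embryonic share, favours such exons. In 659 exons (75.1%) the gene had at least 200 reads in every sample and the exon at least 20 in every adult sample, and the exons described by name below are of this kind, except that of Slc7a11. Just inside the limit of 2 stood exons of Dixdc1, Ddx50 and Mpdz. Their shares were 2.28% ± 0.750, 2.87% ± 0.450 and 1.05% ± 0.404 (mean ± SD, n = 4) in embryonic and 3.56% ± 0.385, 4.47% ± 0.946 and 1.99% ± 0.440 (n = 3) in adult samples. Just outside stood exons of Nbas, Rock1 and Tmem164, with 3.68% ± 0.201, 3.94% ± 0.968 and 5.05% ± 1.35 in embryonic and 5.73% ± 0.810, 6.00% ± 0.212 and 8.19% ± 1.88 in adult samples. Exons on either side of the limit were alike in size of change.

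The exons fell into 3 arrangements along their genes. There were 271 exons in 80 runs of adjacent rows that all gained, 240 stood alone between rows whose difference stayed within 1, and 367 stood alone beside at least 1 row that moved by more than 1 either way. Single gains were the usual case by gene: 446 genes held 1 such exon, 70 held 2 and 57 held 3 or more, and these 57 genes held 292 of the exons (33%). Of the 573 genes, 130 (22.7%) also held an inner exon that lost share by the mirrored rule, against 9.07% of all genes with inner exons. The 130 are 24.1% of the 540 genes with such a loss. Shares are parts of the reads of 1 gene, so a gain in some rows can lower others. Genes with more rows also have more chances of both, and this was not adjusted for. A losing exon in the same gene was found for 42.1% of exons in runs and for 16.3% of exons alone between steady rows. Steady rows exclude a losing neighbour by definition, and the 271 exons in runs lie in only 70 genes. The 2 percentages are therefore not compared. Of the 870 exons in genes of known strand, 71 (8.16%) had an adjacent row with a difference of -2 or below.

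The gaining exons lay towards the start of their genes. When each gene's rows were put in the order of transcription and divided into 3 equal parts, 47.4% of the 870 exons lay in the first part, 30.9% in the middle and 21.7% in the last. Over all inner exons the parts held 33.2%, 36.1% and 30.7%. Exons in runs were placed further towards the start, with 50.9% in the first and 13.9% in the last part. Exons alone between steady rows were spread more evenly, with 39.3%, 30.5% and 30.1%.

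**Figure D1:**
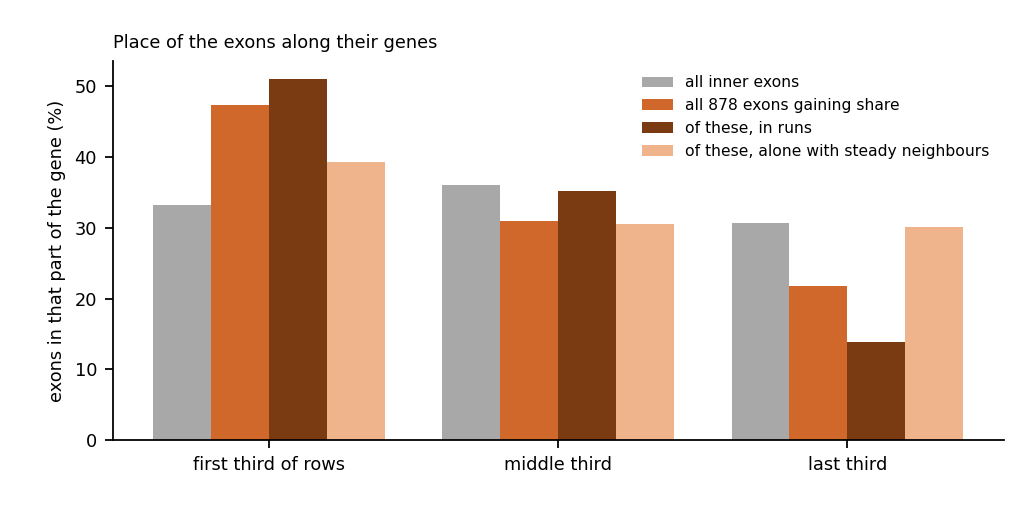
Share of exons (%, vertical axis) in the first, middle and last part of the rows of their gene, in order of transcription, for all inner exons, for the exons gaining share, and for those of them in runs or alone between steady rows. Of the exons in runs, which lie in only 70 genes, 50.9% are in the first part, and of the exons alone between steady rows 39.3%.

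Single exons between steady neighbours were found in well known brain genes. Dbn1 encodes drebrin, an actin-binding protein of dendritic spines that is known for an insert used in the adult form. Its exon at chromosome 13, start 55577997 (mm9, as in the deposited table), row 11 of 15, held 0.578%, 0.625%, 0.649% and 0.595% of the gene's reads in the embryonic samples and 8.33%, 9.09% and 9.09% in the adult samples. The rows on either side changed little: row 10 held 11.8% ± 0.802 and 10.7% ± 0.642, and row 12 held 6.62% ± 0.782 and 7.78% ± 0.962, in embryonic and adult samples. Exon lengths are not given here, so use cannot be compared between rows. In share, the Dbn1 exon lay near its neighbours only in the adult. It rose relative to all reads in genes while its gene fell. The exon's own estimated reads (exon CPM) were 5.02 ± 0.561 against 24.1 ± 3.31 CPM, and the gene level was 819 ± 66.8 against 272 ± 25.2 CPM.

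Clta encodes clathrin light chain a, a subunit of the coat that forms endocytic vesicles, and is known for inserts used in neurons. Its exon at chromosome 4, start 44044272, row 7 of 8, held 1.28%, 1.61%, 1.89% and 1.49% of reads in embryonic and 11.1%, 6.67% and 16.7% in adult samples. The adult samples differed among themselves by more than the whole embryonic range, yet the lowest of them lay well above it, and rows 6 and 8 had differences of -0.63 and -0.65. The gene itself stood at 155 ± 16.1 and 155 ± 10.1 CPM, so the share changed at a steady gene level. Picalm, a clathrin assembly protein, had a gaining exon beside a row that moved by 1.46, at chromosome 7, start 97342783, row 15 of 18. It held 0.467%, 0.476%, 0.532% and 0.671% in embryonic and 1.96%, 4.17% and 4.76% in adult samples, and adult replicate 1 was the lowest of the adults.

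Snap25 encodes a SNARE protein of synaptic vesicle release and is known for a switch between alternative copies of an exon as neurons mature. Its exon at chromosome 2, start 136595793, row 5 of 8, held 3.85%, 3.33%, 3.70% and 3.45% of reads in embryonic samples. In the adult samples it held 14.3%, 11.1% and 11.1%. The flanking rows 4 and 6 stayed within 1, with differences of -0.41 and 0.55. With the gene 10.8 times higher in adult, the exon went from 7.74 ± 0.877 to 284 ± 55 exon CPM, far more than its share alone.

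A receptor gene showed the same arrangement near its end. Grm5 encodes the metabotropic glutamate receptor mGluR5, known for a longer adult form with an insert in the intracellular tail. Row 11 of 12 (chromosome 7, start 95264703) held 0.410%, 0.277%, 0.680% and 0.559% in embryonic and 3.23%, 3.13% and 3.03% in adult samples. The 3 adult Grm5 values lay close together, above the 4 more scattered embryonic values.

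**Figure D2:**
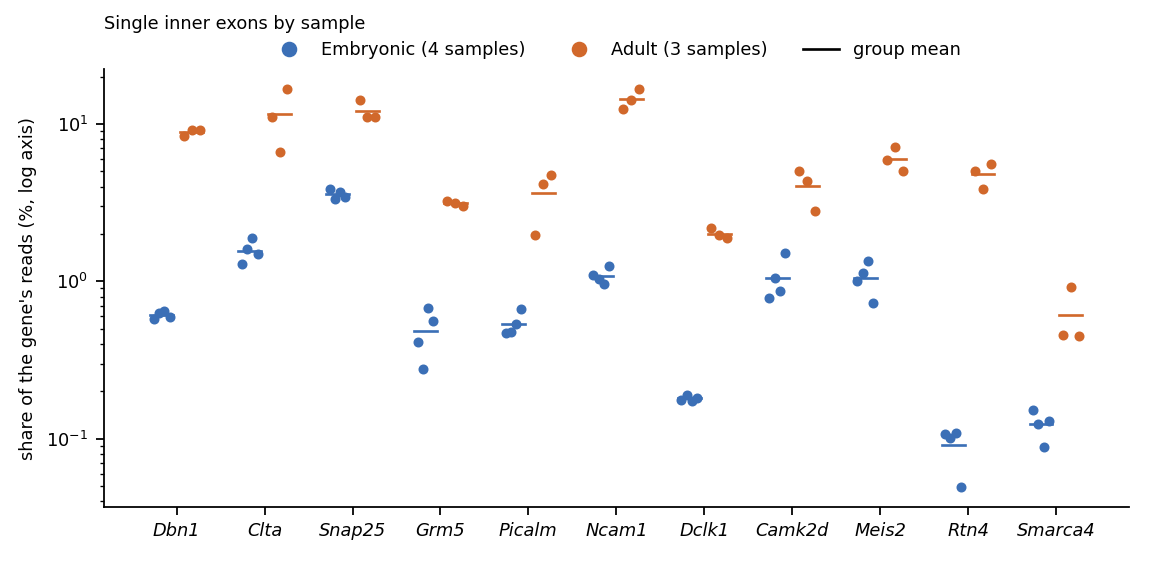
Share of the gene's reads (%, log axis) of 1 exon in each of 11 genes, with a point per sample, 4 embryonic and 3 adult, and a line at each group mean. No exon has overlapping groups, which the choice of the exons fixes; spreads within a group are narrow for Dbn1 and Dclk1 and wide for adult Clta.

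Other named exons stood alone with at least 1 moving neighbour. Ncam1 is a cell adhesion molecule made as a lipid-anchored form and as membrane-spanning forms, which end differently. The exon at chromosome 9, start 49323244, row 19 of its 23 rows, held 1.1%, 1.03%, 0.962% and 1.25% in embryonic and 12.5%, 14.3% and 16.7% in adult samples. The next row went the other way, from 4.22% ± 0.167 to 2.80% ± 0.285, and the 18 rows before the exon all had positive differences, among them a further gaining exon in row 10 (0.0637% ± 0.0348 against 0.782% ± 0.199). Rtn4 encodes the reticulon Nogo, which includes a form that inhibits axon growth. The gaining row, 5 of 11 (chromosome 11, start 29618563), held 0.107%, 0.101%, 0.108% and 0.0493% in embryonic and 5.0%, 3.85% and 5.56% in adult samples, at gene levels of 578 ± 65.1 and 627 ± 42.3 CPM. The exon was near silent in all 4 embryonic samples, with 7 to 12 reads, although the gene was abundant at both ages.

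Exons of signalling genes followed. Dclk1 encodes doublecortin-like kinase, a microtubule-binding kinase, and its exon at chromosome 3, start 55265680, row 6 of 20, held 0.175%, 0.190%, 0.174% and 0.182% against 2.17%, 1.96% and 1.89%. The 5 Dclk1 rows before this exon all had differences of -2.44 or below, and the spread within each age was small. Camk2d, a subunit of the calcium-dependent kinase CaMKII, had 0.781%, 1.04%, 0.862% and 1.52% against 5.0%, 4.35% and 2.78% in its row 10 of 17 (chromosome 3, start 126508775). Arhgef2, an exchange factor for small GTPases that sits on microtubules, had 1, 1, 2 and 3 estimated reads of its exon in the embryonic samples (chromosome 3, start 88433419, row 5 of 25). In the adult samples the Arhgef2 exon held 2.63%, 2.70% and 2.27% of reads.

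Mapt, which encodes the microtubule-binding protein tau, held 3 gaining exons out of 12 rows. Tau is known to be made in a short form in the embryo and in longer forms in the adult that add inserts near the start and a microtubule-binding repeat. Rows 3 and 4 (chromosome 11, starts 104148437 and 104151222) had at most 4 estimated reads in any embryonic sample. In the adult samples they held 0.450%, 0.524% and 0.297%, and 0.287%, 0.402% and 0.218% of reads. Row 9 (start 104179471) held 0.211%, 0.169%, 0.174% and 0.157% in embryonic and 1.92%, 2.04% and 2.08% in adult samples. The 9 other Mapt rows had differences between -1.30 and 0.73, and the gene fell from 1805 ± 159 to 531 ± 30.8 CPM, so these exons gained while tau mRNA as a whole declined.

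Genes of transcription and chromatin held 7 of the exons. Meis2 encodes a homeodomain factor, and its row 2 of 10 (chromosome 2, start 115889828) held 1.01%, 1.12%, 1.35% and 0.730% in embryonic and 5.88%, 7.14% and 5.0% in adult samples. The first Meis2 row moved the other way, from 4.07% ± 0.660 to 1.60% ± 0.335. The listed Meis2 rows held only 45.8% and 48.6% of the gene's reads. Smarca4 encodes BRG1, the motor subunit of a chromatin remodelling complex, and its row 27 of 35 (chromosome 9, start 21482397) held 0.152%, 0.124%, 0.0887% and 0.130% against 0.459%, 0.926% and 0.448%. The Smarca4 gene fell to 217 ± 14.7 from 649 ± 34.6 CPM, and exon CPM overlapped between the ages.

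The largest single difference, 13.5, was in row 2 of Mog, which encodes an outer-surface protein of myelin. Its rows 2 and 3 of 8 (chromosome 17, starts 37157316 and 37154433) had 1 or 2 estimated reads in each embryonic sample. In adult, row 2 held 25% in all 3 samples, and row 3 held 5.88%, 7.69% and 7.14%. The 5 later Mog rows all had negative differences, down to -11.2, and the gene stood at 16.6 ± 1.63 CPM in embryonic and 58.7 ± 26.0 CPM in adult samples.

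Further exons among the 10 largest differences started from very few reads. Mtus1 encodes a microtubule-associated protein, and its row 5 of 14 (chromosome 8, start 42126827) had 1 to 11 estimated reads in embryonic samples and held 5.88%, 7.69% and 7.14% in adult samples. Prkag2 encodes a regulatory subunit of the energy sensor AMPK. Its rows 3 and 5 of 17 (chromosome 5, starts 24527610 and 24453242) had 1 to 8 and 1 to 4 estimated reads in embryonic samples, and adult shares of 3.45% to 5.88% and 3.45% to 4.35%. Row 5 of 26 of Lrrfip1 (chromosome 1, start 92974968), a gene whose product binds nucleic acids, had 1 estimated read in each embryonic sample and 5.26%, 4.17% and 4.0% of reads in adult. In Mtus1 the 9 rows after the exon had differences of -0.58 to 1.2, and in Prkag2 11 of the 12 rows after it were negative, down to -2.19. The first Prkag2 row, which the rule leaves out, gained as well (0.540% ± 0.241 against 6.98% ± 0.275). Lrrfip1 held 8 gaining exons between rows 4 and 17, and its 9 later rows reached down to -1.12.

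Long runs covered whole stretches of a gene. Cntnap2 encodes Caspr2, a neurexin-related adhesion protein that clusters potassium channels on axons, and it held the longest run, 19 adjacent rows, from row 3 to row 21 of 25. Together these rows held 20.1%, 17.8%, 22.1% and 25.7% of Cntnap2 reads in the embryonic samples and 56.5%, 58.7% and 61.4% in the adult samples. The 4 rows after the run all had negative differences, and the first of them, row 22, went from 7.95% ± 1.03 to 1.37% ± 0.206. Cntnap2 reads thus lay mostly near the 3′ end in the embryo and along the body of the gene in the adult. The largest of the run was row 11 (chromosome 6, start 46297088), with 0.389%, 0.719%, 0.488% and 0.446% against 2.63%, 2.86% and 2.50%.

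Kalrn encodes kalirin, an exchange factor for small GTPases that is made in long forms and in kalirin-7, the short form of adult synapses. Of its 64 rows 11 gained by the rule, all between rows 13 and 35, and all 23 rows of that stretch had positive differences. All 29 rows after row 35 had negative differences, 28 of them at -2 or below. Of the 12 rows before row 13, 10 had negative differences, so the gaining stretch lay between losing ones. The second turn came after row 35 (chromosome 16, start 34152111), which held 1.05%, 0.719%, 1.39% and 0.917% against 25%, 20% and 20%, while row 36 fell from 4.22% ± 0.270 to 0.770% ± 0.129. The 11 rows together held 23.9% to 25.1% of reads in embryonic and 60.5% to 63.6% in adult samples.

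Agap3, a GTPase-activating protein for Arf GTPases, showed the same turn on a smaller scale. Its 7 gaining rows lay between rows 2 and 9 of 19, and all 10 later rows had negative differences, 8 of them at -2 or below. The last gaining row, row 9 (chromosome 5, start 23988084), held 0.625%, 0.826%, 0.877% and 0.962% against 4.0%, 3.45% and 4.76%. The gene level was 184 ± 11.6 and 187 ± 16.5 CPM. In Kalrn, Cntnap2 and Agap3 alike, every row after the last gaining one had a negative difference.

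Dlgap4 and Elmo1 gained over their first rows. Dlgap4 is a scaffold of the postsynaptic density, and its rows 2 to 7 of 13 together held 8.31%, 6.70%, 7.07% and 7.77% in embryonic and 29.5%, 34.1% and 33.4% in adult samples. Its row with the largest difference, row 4 (chromosome 2, start 156530146), held 1.11% ± 0.150 and 4.94% ± 0.363. Elmo1 helps Dock proteins to activate Rac, and its rows 2 to 9 of 16 held 1.83%, 1.97%, 1.78% and 2.19% together in embryonic and 14.1%, 12.1% and 15.1% in adult samples. In row 4 of Elmo1 (chromosome 13, start 20378589) each embryonic sample had 1 to 4 estimated reads. Row 8 of Dlgap4, the next after its run, lost share (0.533% ± 0.118 against 0.136% ± 0.00818). The 7 Elmo1 rows after the run had differences down to -1.44 and none reached -2.

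Camta1, a calmodulin-binding transcription activator, had a run in its interior. Its rows 7 to 14 of 29 and row 28 gained, and the 9 rows together held 2.01%, 3.10%, 2.38% and 2.91% in embryonic and 10.6%, 13.3% and 11.8% in adult samples. Row 12 (chromosome 4, start 150517825) held the largest part of this, 1.53% ± 0.237 against 6.32% ± 0.796. The other rows of Camta1 ranged from -2.43 to 1.22. Inpp5f, a phosphoinositide phosphatase, gained in 10 of its rows 4 to 14 of 21 while its gene fell from 301 ± 23.1 to 109 ± 4.09 CPM. Its row 10 (chromosome 7, start 135818812) rose in share from 1.43% ± 0.207 to 3.84% ± 0.507, and its exon CPM was 4.30 ± 0.460 and 4.18 ± 0.399. The level of this Inpp5f exon thus differed between the ages by less than the spread between samples, in a gene that was lower in adult.

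**Figure D3:**
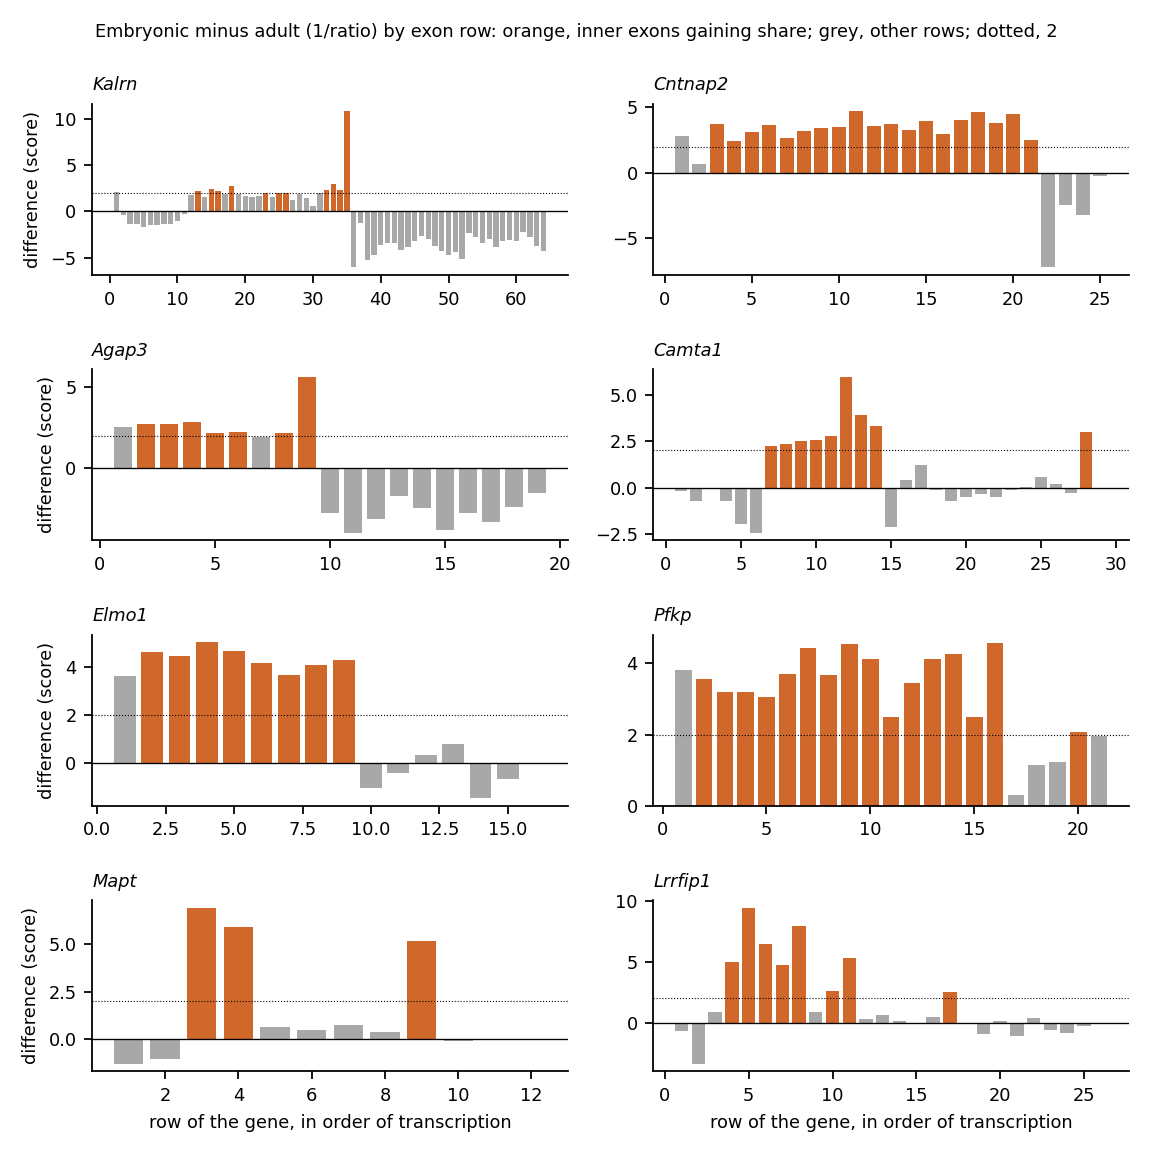
Embryonic minus adult difference in the deposited score (vertical axis) of each exon row of 8 genes, in order of transcription (horizontal axis); orange bars are the gaining inner exons, grey bars the other rows, and the dotted line is the limit of 2. Kalrn turns from losses to gains and back to losses, Cntnap2 and Agap3 turn from gains to losses, Elmo1 and Pfkp gain over a long stretch, and Mapt gains in rows 3, 4 and 9.

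In 3 genes nearly every row gained. Pfkp, the platelet type of the glycolytic enzyme phosphofructokinase, gained in 16 of 21 rows, and the other 5 rows had differences of 0.30 to 3.82. Its gaining rows together held 34.9%, 34.4%, 31.4% and 32.5% of reads in embryonic and 81.7%, 80.7% and 75.7% in adult samples. All listed Pfkp rows summed to 53.2% of the gene's reads in embryonic and 107% in adult samples. For Fbxo7, an F-box protein, the listed rows summed to 12.3% and 54.9%, and for Slc7a11, the cystine-glutamate exchanger, to 2.46% and 62.1%. In these genes many embryonic reads lay outside the rows of the table.

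Taken as a share of the listed rows only, the gain changed in those genes. The Fbxo7 row with the largest difference (chromosome 10, start 85507168) had an adult share of listed rows 0.993 times the embryonic one, against 4.44 times as a share of the gene. For the Pfkp row (chromosome 13, start 6597105) it was 1.39 against 2.78 times. The Slc7a11 row (chromosome 3, start 50181486) had 1 or 2 estimated reads in each embryonic sample, so no ratio is given. The listed rows summed to at least 50% of the gene's reads at both ages for 817 of the 878 exons (93.1%), those of Pfkp among them. This limit is on the sum at each age and not on its change between the ages. As a share of the listed rows, 792 exons (90.2%) were higher in all adult than in all embryonic samples, 85 overlapped and 1 was lower, and 512 were at least 2 times higher, 495 of them among the 577 with such a gain in share of the gene.

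The host genes as a whole moved both ways. Of the 573 genes, 215 (37.5%) had all 3 adult CPM values above all 4 embryonic values and 252 (44.0%) had them all below, against 32.5% and 48.5% of the 5955 genes with inner exons. The median adult level of the host gene, over exons, was 1.04 times the embryonic level. In limma, 233 (40.7%) of the host genes were called higher and 240 (41.9%) lower at an adjusted p under 0.05, against 36.2% and 44.5% of genes with inner exons. Host genes of both directions were thus frequent.

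Most of the exons also rose relative to all reads in genes. Exon CPM, the share times the gene's CPM, was higher in all adult than in all embryonic samples for 651 exons (74.1%), against 23.3% of all inner exons. It overlapped for 186 and was lower in adult for 41 (4.67%), against 36.8% of all inner exons. The rule enters these counts through the share, so they are no separate evidence. Of the 341 exons in genes that were lower in adult, 134 still had higher exon CPM, 166 overlapped and 41 were lower. Among exons in runs 85.2% were higher, and among exons alone between steady rows 63.3%.

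**Figure D4:**
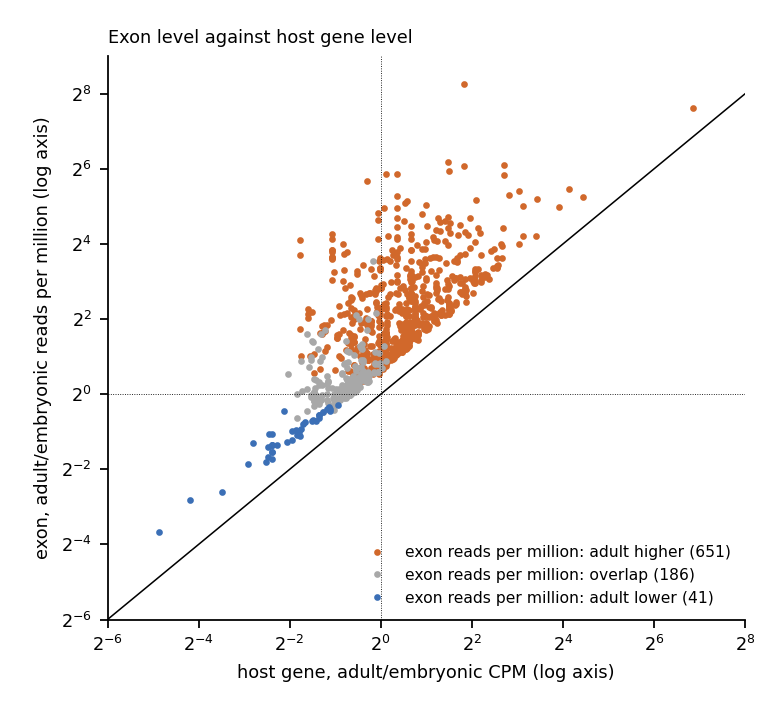
Adult over embryonic ratio of exon CPM (vertical, log axis) against the same ratio of host gene CPM (horizontal, log axis) for the 878 exons; the line marks equal ratios, and colour marks whether the samples of the ages overlap in exon CPM. All points lie above the line, as the choice of exons fixes, and 134 exons in genes with lower adult levels are higher in adult themselves.

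The genes were set against 9 lists of brain gene families, which had been written with examples from these data in view and so carry no test. Of 363 listed genes with inner exons 117 (32.2%) held a gaining exon, against 456 of 5592 genes outside the lists (8.15%). These 363 of 5955 genes held 11.6% of all inner exons, so they had more inner exons per gene in which a gain could be found. Cytoskeletal linkers and microtubule proteins had gains in 19 of 42 genes, among them Dbn1, Mapt, Ank3, Macf1, Dst and Tpm1. Synaptic scaffolds and release proteins had gains in 17 of 39, among them Snap25, Dlgap4, Dlg1, Shank2, Shank3 and Rims2. Ion channels, pumps and receptors had gains in 16 of 40, among them Grm5, Gria1, Gria3, Gria4 and Cacna1a. Inner exons that lost share by the mirrored rule were frequent in these lists too. Such an exon was held by 17 of the 42 cytoskeletal, 16 of the 39 synaptic and 10 of the 40 channel and receptor genes. Over all 5955 genes with inner exons it was 540 (9.07%).

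Regulators of small GTPases held gains in 20 of 56 genes, including Kalrn, Arhgef2, Agap3, Abr, Git2 and Tsc2. Motors and membrane traffic had 15 of 46, including Clta, Picalm, Dnm1, Dnm2, Itsn1 and Kif1a, and kinases, phosphatases and second messengers 14 of 58, including Camk2b, Camk2d, Camk2g and Ntrk2. Adhesion and guidance had 7 of 36, including Ncam1, Cntnap2, Nfasc and Nrxn3, and transcription and chromatin 7 of 42, including Meis2, Mef2c and Myt1l. A losing inner exon was held by 11 of the 56 GTPase regulators, 12 of the 46 motor and traffic genes and 15 of the 58 kinase genes. The same was true of 12 of the 36 adhesion genes and 5 of the 42 transcription genes. In the kinase and adhesion lists more genes held a loss than a gain. Changes in these lists were thus not particular to gains. By exon the shares were 3.03% of inner exons for GTPase regulators, 2.99% for cytoskeletal genes, 3.97% for synaptic genes and 3.49% for channels and receptors. They were 1.75% for kinases and 1.66% for motors and membrane traffic. For the adhesion list they were 4.90% and for transcription genes 0.742%, against 1.25% of all inner exons. Of the 37 exons of the adhesion list 19 lie in Cntnap2 and 8 in Lrrfip1. The product of Lrrfip1 binds nucleic acids, so its place in that list is doubtful.

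**Figure D5:**
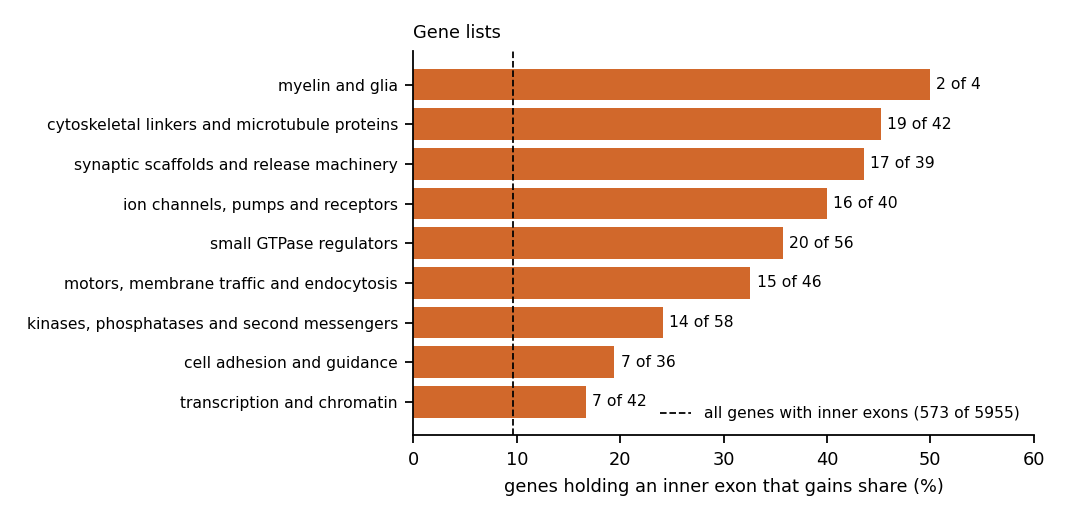
Percent of the genes with inner exons in each list that hold at least 1 exon gaining share (bars, with counts), and the same over all 5955 genes with inner exons (dashed line, 573 genes, 9.62%). Bars run from 16.7% for transcription and chromatin to 50% for myelin and glia, where only 4 genes count. Genes that hold an exon losing share are not drawn.

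Arrangement within a list rested largely on single genes. In the adhesion list 28 of 37 exons lay in runs, 19 of them in Cntnap2 and 7 in Lrrfip1, a doubtful member of that list. In GTPase regulators 21 of 43 did, 8 of them in Kalrn and 7 in Agap3. In genes of motors and membrane traffic none of 17 exons lay in a run, and in kinases and phosphatases none of 19. Exon CPM was higher in all adult than in all embryonic samples for all 32 exons of channels, pumps and receptors, 40 of 43 of GTPase regulators and 4 of 7 of transcription genes, against 74.1% of the 878 exons and 23.3% of all inner exons.

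The exon usage test of limma, in which each exon is set against the rest of its gene, called 1347 of 70125 inner exons larger in adult (1.92%) and 1540 smaller (2.20%), at a Benjamini-Hochberg adjusted p under 0.05. Of the 878 exons 637 (72.6%) were among the calls. The test uses the contrast that chose them, and nothing is read from this share. Over all 86181 exons tested it called 2313 larger (2.68%) and 1872 smaller (2.17%), 4185 in all, but 2757 without adult replicate 2 and 6799 without adult replicate 3.

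Genes that set exon choice were themselves measured. Of 53 listed splicing regulators 52 were tested, and limma called 7 higher and 40 lower in adult (13.5% and 76.9%), against 35.8% and 33.9% of all 22828 genes tested. Their median adult minus embryonic difference was -0.96 on the log2-like scale of the gene table, against 0.03 over all genes. This list too was chosen with earlier results of these data known, and 2 of its genes, Celf2 and Srsf9, are hosts of gaining exons.

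The called regulators that rose most were Mbnl2, Mbnl1 and Celf4, RNA-binding proteins known for developmental changes of splicing. Other Celf genes did not follow Celf4: Celf1, Celf2, Celf3 and Celf5 were called lower, with differences of -0.27, -1.24, -1.07 and -0.21, and Celf6 was not called (-0.12). Rbfox1 (0.91) and Qk (0.89) were called higher by nearly as much as Celf4. Rbfox2 was called lower (-1.42): it went from 830 ± 27.9 to 293 ± 15.8 CPM, and Rbfox1 from 189 ± 4.60 to 338 ± 45.8 CPM. Nova1 was called higher (0.28) and Nova2 lower (-1.14). Ptbp1 (-1.41) and Ptbp2 (-1.53) were called lower, and Ptbp3 was not called (0.04). Mbnl2 went from 18 ± 2.60 to 191 ± 22.5 CPM, a difference of 3.44 ± 0.11 (SE; limma adjusted p = 7.87e-12). Mbnl1 went from 29.3 ± 3.19 to 92.7 ± 12.4 CPM (1.72 ± 0.10, limma adjusted p = 3.32e-09), and Celf4 from 290 ± 8.06 to 517 ± 48 CPM (0.91 ± 0.08, limma adjusted p = 1.20e-07). In all 3 genes every adult value lay above every embryonic value, which was a condition for naming them.

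Among those that fell most, Hnrnpa1, a general repressor of exon inclusion, went from 464 ± 28.1 to 85.3 ± 5.20 CPM (-2.35 ± 0.08, limma adjusted p = 6.80e-12). Rbm38 went from 10.9 ± 0.988 to 2.08 ± 0.315 CPM (-2.07 ± 0.13, limma adjusted p = 5.71e-09). Mbnl3, the least abundant, went from 0.752 ± 0.268 to 0.129 ± 0.127 CPM (-2.07 ± 0.54, limma adjusted p = 0.00338). Without the filter on low values its limma adjusted p was 0.0725, and without adult replicate 1 the Mbnl3 difference was -1.24. Muscleblind genes thus moved in opposite directions, with the abundant members up and the rare one down. Whether any of these genes bears on a given exon was not tested.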

How the data were processed

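Poly(A) RNA of 4 embryonic day 17 and 3 young adult cortices was sequenced. The submitters' processing notes name SAMtools 0.1.7a, HTSeq 0.5.3p3, TopHat 1.0.13, CASAVA 1.7.1, Bowtie 0.12.7.0 and the mm9 genome, without role. No source used here says if reads were counted by strand, so a gene and its antisense partner cannot be told apart, and reads of near-identical gene copies are uncertain. The deposited gene values are log2-like variance-stabilized values made by the authors. The deposited exon values are a score, 1 over a ratio per the file headers, named as variance-stabilized too; the tool is not given in the sources.

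Each column steps through whole numbers, which were recovered from the deposited values: reads per gene, and gene reads over exon reads per exon. In 97.8% to 98.1% of informative exon values, a whole number of exon reads gave the value, against 39.2% to 41.3% after moving gene counts by up to 200 reads. A share is 100 divided by that number, and exon reads are estimates. Reads crossing a junction may count in several rows. CPM is per 1000000 reads in genes.

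Rows were ordered with GENCODE M21 strands, matched by symbol for 569 of 573 host genes. No mm9 genome was used, so exon ends, lengths and sequences are not given. Genes were tested in limma 3.58.1 (R 4.3.3; lmFit, eBayes with trend) and exons with diffSplice, two-sided, Benjamini-Hochberg adjusted over all rows, all 7 samples, no covariate; rows at their column's lowest value in more than 3 samples were left out. Both were tested on simulated data. With unequal spread between a gene's exons the exon test called too many unchanged exons, so its counts serve only as background. Replicates of a group differed by more than counting noise (chi-square per degree of freedom 4.83 to 17.7), and the spread behind a p-value may be technical, since nothing says the samples are separate animals.

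The exons and gene lists were chosen with earlier results of these data known. Named exons are the 10 largest differences, per list the 2 genes with the largest difference at at least 200 gene reads in every sample and 20 exon reads in every adult sample, the 10 genes with most exons, and 3 on each side of the limit; named regulators are the 3 largest changes each way of genes that passed the test with separate groups. Other rows of these genes are given as context, chosen after their values were seen. Alternatives were other limits, share scales, filters, centring, a replicate block and leaving out each sample. A few exons that this rule names are not reported here.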

Additional observations from a re-analysis of the deposited data

Results flagged for a closer look

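In 3 named exons, 1 of the 4 embryonic samples stood apart from the other embryonic samples by Dixon's gap criterion. Chance alone gives about 1 such case in 20 groups. The Rtn4 exon held 0.0493% of reads in embryonic replicate 4, against 0.101% to 0.108% in the other embryonic samples (7 against 12 estimated reads). The second Mog exon, row 3, held 0.680% in embryonic replicate 1, against 0.260% to 0.303% in the others. The Slc7a11 exon held 0.0759% in embryonic replicate 1, against 0.0277% to 0.0306% in the others. The Mog and Slc7a11 values are 2 estimated reads against 1, so a single estimated read makes the gap.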

How the results depend on the processing

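The number of exons depends on the limit. It was 878 at a difference of 2, 1421 at 1.5, 383 at 3, and 263 when a share at least 4 times larger was asked instead. As a share of the listed rows, an alternative added after seeing the data, 512 of the 878 were at least 2 times larger in adult. Leaving out each sample in turn gave 958 to 1444 exons, in every case more than 878. Each omission leaves fewer values to keep apart, which loosens the rule. Why the count was highest without adult replicate 3 was not tested. Exon usage calls numbered 4185 and ranged from 2757 (without adult replicate 2) to 6799 (without adult replicate 3). Gene calls ranged from 15112 to 15601 and called regulators from 46 to 48 of 52 over the same omissions. Centring each sample on its median gave 7001 genes higher and 9047 lower, against 8180 and 7736, and 5 regulators higher and 42 lower. Without the filter on low values, Mbnl3 no longer passed the threshold. The score differences of the named exons kept their sign when each sample was left out or samples were centred, and those of the named regulators in all alternatives run for them. Not every named exon stayed at the limit of 2: that of Smarca4 had a difference of 1.93 without adult replicate 2. On the scale of listed rows the named Fbxo7 exon was 0.993 times, no longer a gain.

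Replicate numbers are shared between the ages in the labels, but the correlation of deviations of same-numbered samples was over 0.1 in only 1 of 6 cases (0.112), so the numbers were not taken as a pairing. With the replicate block 4001 exons, 15555 genes and 48 regulators were called. A count-based quasi-likelihood test that had been planned was not run, since the files hold no raw counts. Shares from exons with few embryonic reads are limited by depth: for 137 exons no embryonic sample had more than 5 estimated reads.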

Other observations

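Of the 584 inner exons with at most 5 estimated reads in every embryonic sample, 137 are among the gaining exons, and 38 of these had at least 20 estimated reads in every adult sample.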
